A study of Mus musculus with 10 samples.

Results

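A set of 10 genes that mark T cells and natural killer (NK) cells were measured in whole lung tissue of mice with and without the gene Bpifb1. They were Cd3e, Cd3d, Cd3g, Cd4, Cd8a and Cd8b1 for T cells, and Nkg7, Gzma, Klrb1c and Ncr1 for NK and other cytotoxic cells. They were chosen by name for the cells they mark, with earlier results of these data known. The set makes up 10 of the 47333 genes in the count table. All 10 were among the 18024 genes with enough counts to be tested. RNA came from the right middle lobe of 5 knockout (KO) and 5 wild-type (WT) mice of the C57BL/6J background, aged 12 weeks and left untreated. Of the KO mice 1 was male and 4 were female, and of the WT mice 2 were male and 3 female. Both genotypes shared cages, and the labels do not describe how the KO allele was made or whether a promoter or Cre was involved. The study set out to test for expression differences due to the loss of Bpifb1, a gene for a secreted protein of the airway lining.

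A T cell recognises antigen through its receptor, whose signal is carried into the cell by the CD3 chains encoded by Cd3e, Cd3d and Cd3g. The coreceptors CD4 and CD8 bind MHC class II and class I molecules on the cell being read and so separate helper from cytotoxic T cells. NK cells carry no rearranged receptor and kill target cells by releasing granules when activating receptors outweigh inhibitory ones. Both cell types are found in the healthy lung, in its vessels, along its airways and within its walls.

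The libraries held 21357424 to 28321294 counts per mouse, and 24026 to 25135 genes had at least 1 count. Levels are given as CPM, that is as counts per 1000000 of the library, with library totals scaled between mice. Bpifb1 itself stood at 0.217 to 1.26 CPM in KO mice and at 28.1 to 79.6 CPM in WT mice, without overlap. Lung epithelial and endothelial markers summed to 42894 to 54216 CPM. KO replicate 5, labelled female, had 1.78 CPM of the X-inactivation transcript Xist against 274 to 407 CPM in the other females, and 0 counts of 4 Y-linked genes. Sex comparisons are therefore given with and without this mouse. The 5 thymocyte markers summed to at most 0.998 CPM, with Rag2 at 0 counts in every mouse. Of the 7 lymph node and lymphoid follicle markers in the table only Glycam1 was at 0 in every mouse. Together these 7 summed to 104 to 128 CPM per mouse.

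T and NK cell genes were present at low levels in every lung. A member had between 61 counts (Ncr1 in WT replicate 4) and 856 counts (Gzma in WT replicate 5) in a mouse, where 3 counts, the smallest signal read as detected, equal 0.106 to 0.14 CPM. This floor covers counting error only. To compare genes with each other, CPM was divided by the length of the gene's exons in kilobases. Gzma, the granule protease granzyme A, was highest at 24.3 ± 5.93 CPM per kilobase (SD over 10 mice). Nkg7, a membrane protein of cytotoxic granules, followed at 10.7 ± 2.58 CPM per kilobase. Over the mice Gzma ran from 12.3 to 30.8 and Nkg7 from 6.13 to 14.0 CPM per kilobase. The means of the other members lay between 1.60 and 3.86 CPM per kilobase. Cd8b1 stood at 3.86 ± 1.07, Ncr1 at 3.55 ± 0.83, Cd3d at 3.08 ± 0.60, Klrb1c at 2.81 ± 0.68, Cd3g at 2.45 ± 0.43, Cd4 at 2.08 ± 0.30, Cd3e at 1.76 ± 0.31 and Cd8a at 1.60 ± 0.46 CPM per kilobase. Among these 8 the range of each gene over the mice overlapped that of its neighbour in the order. All were measured in the same mice, and whether the order held within each mouse was not tested. The annotated exons of a gene are an upper limit of its transcript length, and a transcript shorter than this union would have a higher level per kilobase than given here.

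The members lie on chromosomes 6, 7, 9 and 13 (coordinates of GRCm38). Cd3g (chr9:44969572-44980431, minus strand), Cd3d (chr9:44981786-44987339, plus strand) and Cd3e (chr9:44998740-45009627, minus strand) are neighbours, with 1354 bases between Cd3g and Cd3d, which point away from each other, and 11400 bases between Cd3d and Cd3e. Cd8b1 (chr6:71322788-71337494) and Cd8a (chr6:71373427-71379173) lie 35932 bases apart on the plus strand. Cd4 (chr6:124864692-124888221) and Klrb1c (chr6:128778485-128789215) are on the minus strand of the same chromosome. Ncr1 (chr7:4337724-4345164) and Nkg7 (chr7:43437073-43438249) are on the plus strand of chromosome 7, and Gzma (chr13:113093825-113100981) is on the minus strand. Klrb1c shares exons with Gm44511 on its own strand, which took 212 counts over the 10 mice, and its estimated counts were not whole numbers in 10 of 10 mice. Those of Cd8b1 were not whole in 7 of 10 mice. Counts of these 2 genes were thus partly shared out with other transcripts and are less certain than those of the other 8, whose counts were whole in every mouse to within 0.01.

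Some members varied together from mouse to mouse. The 250 bases before the RefSeq start of each gene were therefore examined for short motifs of lymphocyte transcription factors. RefSeq (GRCm38.p6) gave a window for 8 of the 10 members, and Cd4 and Cd8b1 had no entry. The windows shown are those of Cd3g and Cd3d, the neighbouring pair, and of Gzma and Ncr1, 1 gene for the killing machinery and 1 for an NK receptor. Each is written 5′ to 3′ on the strand of its gene and ends at the base before the RefSeq start. Capitals mark TGTGGT, the core of RUNX sites, on either strand (ACCACA when reversed) in Gzma and Ncr1, and GGAAGT, an extended core of ETS sites (ACTTCC when reversed), in Cd3d. GGAAGT was searched for in Cd3g as well, and its window holds none.
The windows are chr9:44980432-44980681 (minus strand) for Cd3g, chr9:44981536-44981785 (plus strand) for Cd3d, chr13:113100982-113101231 (minus strand) for Gzma and chr7:4337465-4337714 (plus strand) for Ncr1.
Cd3g: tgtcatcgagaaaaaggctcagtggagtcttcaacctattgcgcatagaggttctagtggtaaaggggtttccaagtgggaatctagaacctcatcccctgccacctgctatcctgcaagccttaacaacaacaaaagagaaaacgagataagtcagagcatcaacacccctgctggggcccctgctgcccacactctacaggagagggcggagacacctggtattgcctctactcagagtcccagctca
Cd3d: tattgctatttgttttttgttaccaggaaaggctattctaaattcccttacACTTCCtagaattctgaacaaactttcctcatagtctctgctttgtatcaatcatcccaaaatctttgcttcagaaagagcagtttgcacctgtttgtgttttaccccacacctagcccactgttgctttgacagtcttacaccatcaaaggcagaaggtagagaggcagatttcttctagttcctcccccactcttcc
Gzma: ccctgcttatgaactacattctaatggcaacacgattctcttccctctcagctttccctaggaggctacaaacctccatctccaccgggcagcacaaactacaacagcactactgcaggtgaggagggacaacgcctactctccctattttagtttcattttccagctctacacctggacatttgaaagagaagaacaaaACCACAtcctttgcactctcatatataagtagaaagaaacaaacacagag
Ncr1: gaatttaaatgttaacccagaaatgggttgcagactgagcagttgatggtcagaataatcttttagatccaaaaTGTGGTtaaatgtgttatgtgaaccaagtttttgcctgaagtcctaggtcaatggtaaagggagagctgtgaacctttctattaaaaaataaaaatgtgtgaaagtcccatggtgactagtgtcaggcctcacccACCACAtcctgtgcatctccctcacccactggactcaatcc

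The RUNX core stood 50 to 45 bases before the start of Gzma, and at 2 places in Ncr1, 176 to 171 and 41 to 36 bases before the start. It was also found once each in the windows of Klrb1c and Nkg7. All 4 NK and cytotoxic windows thus held it and none of the 4 T cell windows (Cd3e, Cd3d, Cd3g and Cd8a) did. Of 32851 RefSeq windows of the same length 14.0% held it. By the gene coordinates given above, the Klrb1c window (chr6:128788642-128788891) lies inside the gene. The windows of Nkg7 and Cd3e run partly into their genes. GGAAGT was in 2 of 4 T cell windows (Cd3d and Cd3e) and in 1 of 4 NK windows (Klrb1c), against 19.7% of all windows. Of the other motifs among the 8 searched on both strands, GGAA (93.4% of all windows) overlaps GGAAGT and was in 7 of 8 member windows, and the E-box CANNTG (66.2%) was in all 8. The T-box motif TCACAC (12.3%) was in Ncr1 and Nkg7, AGATAA (9.99%) in 1 member window and CTTTGA (13.8%) in 1, while TATAAA (12.4%) was in 0 of 8. These matches describe letters in a window, and whether any factor binds there was not measured.

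Loss of Bpifb1 was not accompanied by a change in any of the T and NK cell genes that passed the test. Of the 10 members, 0 were called between KO and WT mice by edgeR's quasi-likelihood test at an adjusted p under 0.05, a threshold that 0.0222% of all tested genes passed. DESeq2, which called 1.92% of all genes, and limma-voom, which called 0.0111%, called 0 members as well. CPM ranges of the 2 genotypes overlapped for every member, while they did not overlap for 1.88% of all tested genes. At an unadjusted p under 0.05, 2 members differed, Cd3d and Cd3g, both lower in KO. That threshold was passed by 17.0% of all genes, and by 8.04% in the direction lower in KO. The members' median log2 fold change was 0.02, with 5 positive and 5 negative, and that of all tested genes was -0.003. In bulk tissue, fewer cells of a type and less RNA per cell cannot be told apart, here and in every result that follows. The labels name no separate litters or batches, and p-values measure the spread between these 10 mice.

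**Figure D1:**
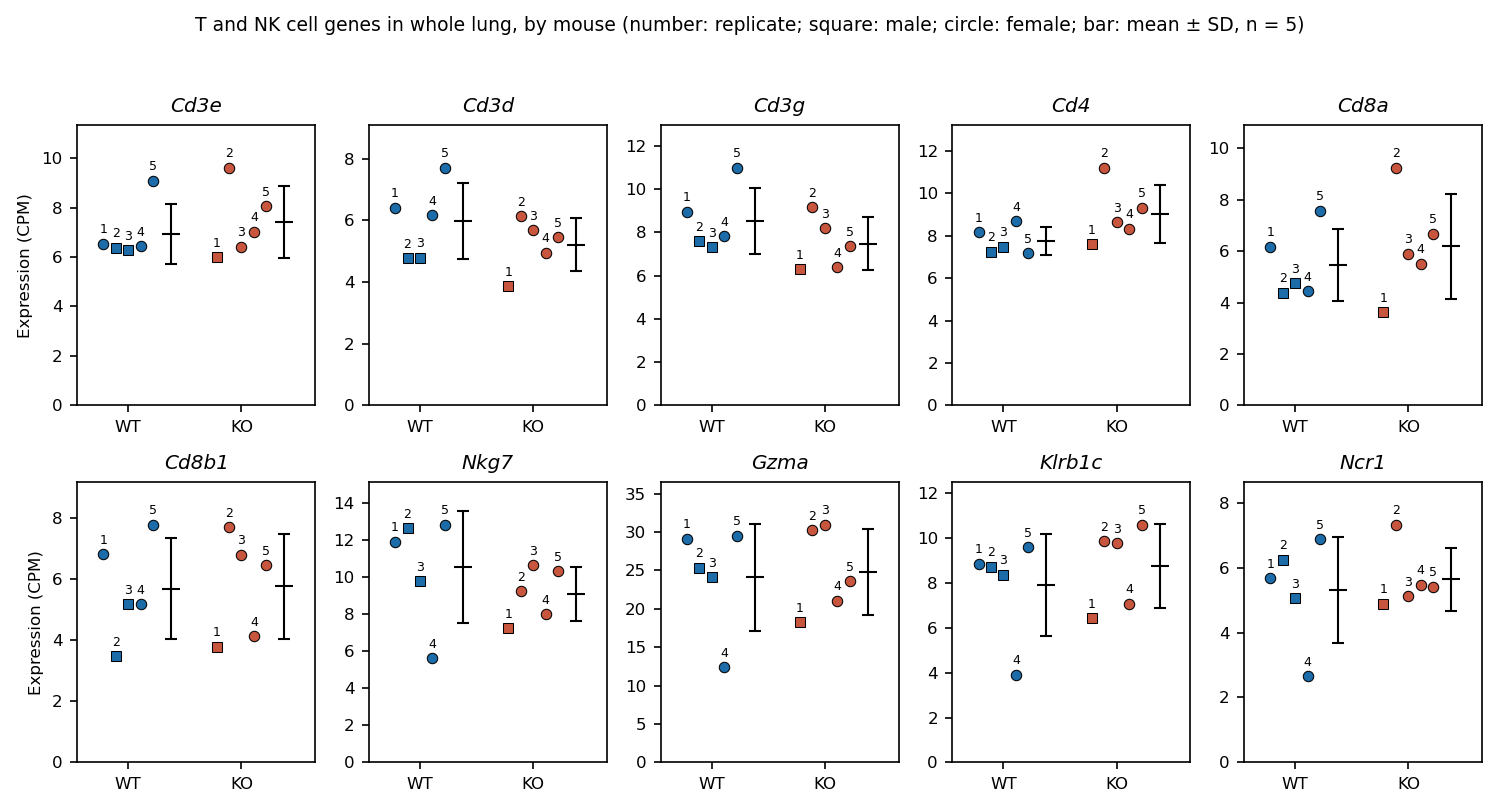
Level of each of the 10 genes in CPM (vertical axes, from 0) in every mouse, with WT in blue and KO in red, squares for males and circles for females, the replicate number beside each point, and the mean ± SD of the 5 mice to the right. The genotypes overlap for every gene, and WT replicate 4 lies lowest for Nkg7, Gzma, Klrb1c and Ncr1.

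Among the CD3 chains, Cd3d and Cd3g had lower values in KO mice and Cd3e did not, and none passed the test. Cd3d (ENSMUSG00000032094) was at 3.86, 6.13, 5.67, 4.95 and 5.45 CPM in KO replicates 1 to 5 and at 6.40, 4.76, 4.78, 6.17 and 7.70 CPM in WT replicates 1 to 5. The lowest value belonged to a KO male and the highest to a WT female, and 3 of the 5 WT values lay above every KO value. Its log2 fold change was -0.29 (SE 0.10, 95% interval -0.51 to -0.08; unadjusted p = 0.0116, adjusted p = 0.195 by edgeR). Cd3g (ENSMUSG00000002033) was at 6.30, 9.17, 8.18, 6.38 and 7.35 CPM in KO and at 8.94, 7.58, 7.31, 7.82 and 10.98 CPM in WT, with a log2 fold change of -0.25 (SE 0.11; unadjusted p = 0.0473, adjusted p = 0.288 by edgeR). The WT mice were all above the 2 lowest KO mice, replicates 1 and 4, and the groups otherwise overlapped. Cd3e (ENSMUSG00000032093), the chain most used to define T cells, was at 5.98, 9.61, 6.41, 7.03 and 8.06 CPM in KO and at 6.54, 6.39, 6.27, 6.43 and 9.08 CPM in WT. The other WT mice lay between 6.27 and 6.54 CPM and WT replicate 5 stood apart above them. The log2 fold change of Cd3e was 0.04 (SE 0.13, 95% interval -0.24 to 0.32; adjusted p = 0.915 by edgeR).

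Ratios of counts within a mouse do not depend on the library's depth. The ratio of Cd3d to Cd3e was 0.709 ± 0.101 in KO and 0.859 ± 0.108 in WT mice, and that of Cd3g to Cd3e was 1.02 ± 0.154 in KO and 1.23 ± 0.08 in WT mice (SD, n = 5 each). In both ratios 4 of 5 KO mice lay below every WT mouse, and KO replicate 3, at 0.884 and 1.28, lay within the WT range. Cd3d to Cd3g, in contrast, was 0.698 ± 0.063 in KO and 0.698 ± 0.062 in WT mice. These ratios were formed after the levels were known and were not tested. The length of the genes moved with the genotype difference. Across 18011 tested genes with a known exon length, Spearman's rho between exon length and log2 fold change was 0.37, with a median of -0.08 for genes under 2000 bases and of 0.05 for genes over 4000 bases. Cd3d has 1815, Cd3g 3269 and Cd3e 4080 bases of exon. With exon length as an offset, Cd3d had a log2 fold change of -0.22 (unadjusted p = 0.0536) and Cd3g of -0.22 (unadjusted p = 0.0773) by edgeR, so that 0 of 10 members passed an unadjusted p of 0.05, which 12.9% of all genes did. Sex left out of the model also gave 0 members under this threshold, which 2283 of all tested genes passed. Leaving out any of 7 mice, KO replicates 1 and 5 among them (12.9% and 13.2% of all genes), left 1 member. Over these 7 fits 1875 to 3460 of all tested genes passed. Leaving out KO replicate 2 left 2 members (2275 of 18107 tested genes), and leaving out WT replicate 5 left 0 (16.1% of all genes). Without WT replicate 4 there were 3 members (19.2% of all genes).

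Neither coreceptor differed between the genotypes beyond the spread of the mice. Cd4, the coreceptor of helper T cells, was at 7.60, 11.20, 8.65, 8.33 and 9.32 CPM in KO and at 8.17, 7.24, 7.47, 8.69 and 7.18 CPM in WT (log2 fold change 0.18, SE 0.10; adjusted p = 0.367 by edgeR). KO replicates 2 and 5 were above every WT mouse and the others were not. Cd8a, the CD8 alpha chain, was at 3.62, 9.24, 5.90, 5.51 and 6.68 CPM in KO and at 6.17, 4.38, 4.74, 4.43 and 7.56 CPM in WT. Both its lowest and its highest mouse were KO, 2.55-fold apart, and the log2 fold change of 0.05 had a 95% interval of -0.35 to 0.44. Cd8b1, the CD8 beta chain, ran from 3.78 to 7.69 CPM in KO and from 3.48 to 7.77 CPM in WT (log2 fold change -0.11, 95% interval -0.49 to 0.28). The ratio of Cd4 to Cd8a counts was 1.54 ± 0.334 in KO and 1.49 ± 0.379 in WT mice (SD, n = 5 each), lowest in WT replicate 5 at 0.95 and highest in KO replicate 1 at 2.10. Some dendritic cells also carry CD8 alpha chains, and the 5 type 1 dendritic cell markers measured summed to 128 to 151 CPM in KO and 114 to 150 CPM in WT mice. Their part in the Cd8a level was not tested.

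In all 4 NK and cytotoxic genes the lowest of the 10 mice was WT replicate 4, and none was called between the genotypes. Ncr1, an activating receptor carried mainly by NK cells and related innate lymphoid cells, was at 5.67, 6.24, 5.06, 2.65 and 6.87 CPM in WT and at 4.88, 7.32, 5.11, 5.47 and 5.41 CPM in KO. Klrb1c, the surface antigen by which NK cells of C57BL/6 mice are commonly sorted, was at 8.85, 8.72, 8.36, 3.91 and 9.60 CPM in WT and at 6.42, 9.87, 9.76, 7.07 and 10.59 CPM in KO. In both genes WT replicate 4, a female, lay far below the other 9 mice, which spanned 4.88 to 7.32 CPM for Ncr1 and 6.42 to 10.59 CPM for Klrb1c. Gzma was at 29.14, 25.35, 24.14, 12.42 and 29.56 CPM in WT and at 18.23, 30.23, 30.96, 21.09 and 23.62 CPM in KO. Nkg7 was at 11.89, 12.63, 9.76, 5.60 and 12.81 CPM in WT and at 7.24, 9.24, 10.64, 7.98 and 10.31 CPM in KO. Again the lowest of the 10 mice was WT replicate 4, followed by KO replicate 1. Gzma and Nkg7 are also expressed by cytotoxic T cells.

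With all mice, the log2 fold changes between KO and WT were -0.23 for Nkg7 (95% interval -0.73 to 0.26), -0.003 for Gzma (-0.61 to 0.60), 0.12 for Klrb1c (-0.43 to 0.67) and 0.09 for Ncr1 (-0.41 to 0.58), each with an adjusted p over 0.6 by edgeR. Without WT replicate 4 all 4 became negative, with a median of -0.19, and Nkg7 stood at -0.45 (unadjusted p = 0.00158, adjusted p = 0.096 by edgeR). Over all 10 members the median then was -0.18 with 9 negative, 3 passed an unadjusted p of 0.05 and 0 passed the adjusted threshold, while 19.2% and 0.0274% of all genes did. The ratio of Gzma to Nkg7 counts was 2.73 ± 0.378 in KO and 2.29 ± 0.19 in WT mice (SD, n = 5 each), with the ranges overlapping. Nkg7 has the shortest exons of the 10 members, 914 bases.

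WT replicate 4 was low across the NK programme and not across T cell genes. Of the 29 tested genes in a list of NK receptors and cytotoxic effectors, 21 had their lowest value in this mouse (72.4%), compared with 6.96% of all tested genes. It was lowest in 4 of 4 NK and cytotoxic members, in 0 of 6 T cell members and in 0 of 22 genes of the T cell receptor and its signalling. Among the list's most abundant genes, Il2rb, a receptor chain for cytokines that keep NK cells alive, was at 11.55 CPM in this mouse and at 17.70 to 24.83 CPM in the others. The chemokine gene Ccl5 was at 12.34 CPM against 15.75 to 23.89, and Prf1, the gene for the pore-forming protein perforin, at 4.78 CPM against 7.24 to 11.11. Its ratio of Ncr1 to Cd3e counts was 0.412, where the other 9 mice had 0.672 to 0.978. Its total of 23009059 counts was within the range of the others, its B cell markers summed to 208 CPM and its leukocyte markers to 695 CPM, within the ranges of the other mice. It was also the lowest mouse in 6 of 9 red cell and platelet markers (66.7%), with the lowest sum, 11556 CPM, where the other mice had 12082 to 19553 CPM. What sets this mouse apart, and the part of blood content in it, was not tested.

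KO replicate 1, the only KO male, was the mouse most often lowest in T cell receptor genes. It had the lowest value in 4 of 6 T cell members and in 14 of 22 genes of the T cell receptor list (63.6%), against 16.5% of all tested genes. In the list of T cell identity and state genes it was lowest in 7 of 20 (35.0%), and WT replicate 2, also male, in 8 of 20 (40.0%). KO replicate 1 was lowest in 2 of the 29 NK list genes and highest in 4. KO replicate 2 and WT replicate 5, both female, were the high mice: one or other was highest in all 6 T cell members. KO replicate 2 also had the highest sum of B cell markers, 311 CPM, where the other mice had 150 to 267 CPM, and was highest in 6 of 7 of them. The heat map of lymphocyte genes by mouse shows these rows side by side.

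**Figure D2:**
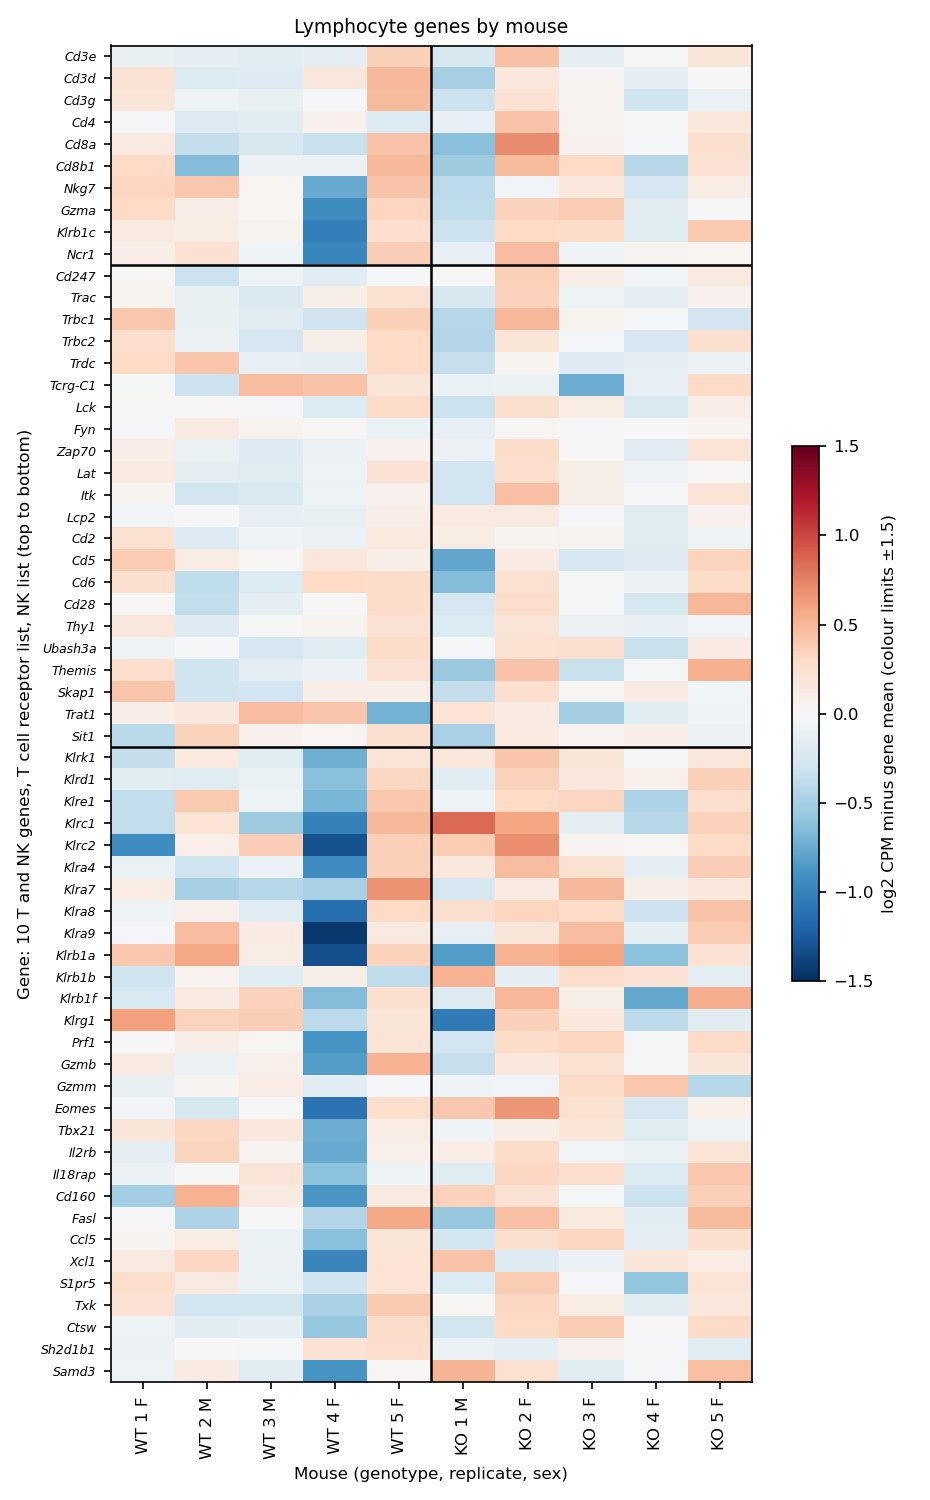
Log2 CPM of each gene minus its mean over the 10 mice (colour, limits ±1.5) for the 10 T and NK cell genes, the T cell receptor list and the NK list from top to bottom (rows), by mouse (columns, with genotype, replicate and sex). The column of WT replicate 4 is blue in most NK rows, where it is lowest in 21 of 29 genes, and the column of KO replicate 1 is blue in most T cell rows, where it is lowest in 14 of 22.

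Males had lower T cell members than females, though not past the threshold of the main test. Of the 10 members 0 were called between the sexes by edgeR at an adjusted p under 0.05, which 0.583% of all genes passed, 0.133% in the direction lower in males. All 10 log2 fold changes were negative, as were those of 51.7% of all genes, and 4 members had an unadjusted p under 0.05 and were lower in males. That threshold was passed by 15.1% of all genes, and by 7.79% in this direction. Those 4 were Cd3d, Cd3g, Cd8a and Cd8b1, all T cell genes. The median was -0.41 over the 6 T cell members and -0.08 over the 4 NK and cytotoxic members, beside -0.01 over all genes. The difference between the 2 kinds of members was not tested, and the NK median depended on single mice. Without WT replicate 4 it was -0.27 with all 4 negative, and without KO replicate 1 it was 0.14 with all 4 positive, while the T cell median was -0.46 and -0.37 with all 6 negative. Only 3 mice were male, and 1 of them is KO replicate 1.

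Cd3d was closest to a call. It was at 3.86, 4.76 and 4.78 CPM in the 3 males and from 4.95 to 7.70 CPM, median 6.13, in the 7 females, so the sexes did not overlap. The log2 fold change was -0.51 (SE 0.11, 95% interval -0.75 to -0.27; unadjusted p = 4.73e-04, adjusted p = 0.0609 by edgeR). The DESeq2 Wald test gave it an adjusted p of 0.0235, in a fit that called 2.42% of all genes, and edgeR without WT replicate 4 gave 0.0478, in a fit that called 1.07%. Cd3e did not overlap either, with 5.98 to 6.39 CPM in males and 6.41 to 9.61 CPM in females, but its difference of -0.29 had an adjusted p of 0.374 by edgeR. The sexes did not overlap in 4.81% of all tested genes, and in 2.55% with the lower values in males. Cd8a ran from 3.62 to 4.74 CPM in males and from 4.43 to 9.24 CPM in females (log2 fold change -0.61, SE 0.21; adjusted p = 0.193 by edgeR), and Cd8b1 from 3.48 to 5.18 and from 4.12 to 7.77 CPM (-0.65, SE 0.20; adjusted p = 0.157 by edgeR). The log2 fold changes of the other members were -0.31 for Cd3g, -0.19 for Cd4, -0.06 for Nkg7, -0.17 for Gzma, -0.09 for Klrb1c and -0.02 for Ncr1. The last 4 had 95% intervals at least 1 log2 unit wide, that of Gzma from -0.84 to 0.50.

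Without KO replicate 5, whose Xist level differed from its label, all 10 differences were negative again, the same number of members (4) had an unadjusted p under 0.05 (14.5% of all genes), and 0 were called (0.514% of all genes). Without KO replicate 1 there were 2 members under the unadjusted threshold (10.6% of all genes) and 6 negative differences. All 9 red cell and platelet markers had higher values in males. Of these 7 had an unadjusted p under 0.05 and 0 were called, beside 15.1% and 0.583% of all genes. Their sums were 13086 to 19553 CPM in males and 11556 to 14101 CPM in females. The lowest male, KO replicate 1, was within the female range. The highest male, WT replicate 2, was the highest mouse in 7 of the 9 markers (77.8%, against 13.1% of all genes). Of the 7 B cell markers all had negative differences (median -0.23) and 0 an unadjusted p under 0.05. Lower values in males were also found in 3 of 4 tested markers of type 2 innate lymphoid cells (median -0.24), 4 of 5 of type 1 dendritic cells (median -0.15) and 5 of 6 of leukocytes (median -0.10), with 2 of each list lower at an unadjusted p under 0.05 and 0 called. The part of these cells in the T cell difference was not tested. The part of blood content in the T cell difference was not tested.

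**Figure D3:**
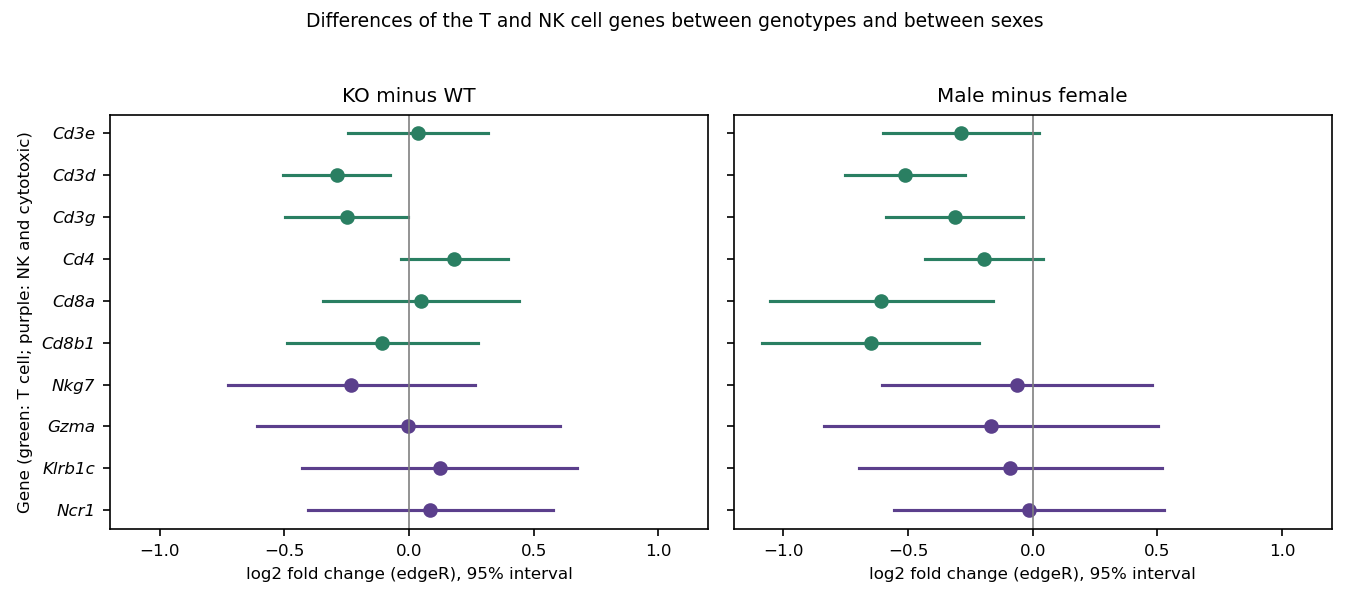
Log2 fold change (horizontal axis, with 95% interval from edgeR) of each of the 10 genes between KO and WT (left) and between males and females (right), with T cell genes in green and NK and cytotoxic genes in purple. Between genotypes the intervals of Cd3d and Cd3g lie below 0, and between sexes those of Cd3d, Cd3g, Cd8a and Cd8b1 do; none of these passed an adjusted p of 0.05.

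The wider set of T and NK genes was described with lists of 5 kinds, none with a gene called between the genotypes. The counts at an unadjusted p under 0.05 stand beside 17.0% of all tested genes. In the list of 22 genes of the T cell receptor and its near signalling, 6 differences were positive and 16 negative, with a median log2 fold change of -0.07. Cd247, the zeta chain that signals beside CD3, had 0.20 (SE 0.09; adjusted p = 0.267 by edgeR) and Cd5, a brake on receptor signalling, -0.36 (SE 0.15; adjusted p = 0.262 by edgeR), and these were the 2 with an unadjusted p under 0.05, where 0 remained without KO replicate 1. Its most abundant genes were the kinase Fyn at 80.5 CPM, which many cell types express, Thy1 at 26.6 CPM and Lcp2 at 22.4 CPM. Of 20 genes of T cell identity and state, 10 differences were positive (median -0.01) and 5 had an unadjusted p under 0.05. Cd69, an early activation and residency antigen, had 0.43 (SE 0.15; unadjusted p = 0.0122, adjusted p = 0.198 by edgeR). It was at 3.82, 7.28, 6.18, 5.51 and 6.36 CPM in KO and at 3.60 to 4.56 CPM in WT mice, so that the 4 KO females were above every WT mouse and the KO male was not. Cd27, a costimulatory receptor, had -0.37 (SE 0.12; adjusted p = 0.182 by edgeR), and S1pr1, which guides lymphocytes out of tissue and is abundant in endothelium, 0.19 at 293 CPM.

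In the NK list 23 of the 29 tested genes had a positive difference, with a median of 0.19, but this rested on WT replicate 4. Without that mouse 30 genes were tested, 14 differences were positive and the median was -0.01. Klrk1, an activating receptor for ligands of stressed cells, was at 8.94 to 12.05 CPM in KO and 5.39 to 10.36 CPM in WT mice (log2 fold change 0.37, SE 0.16; adjusted p = 0.276 by edgeR). Klrb1b, an inhibitory receptor, had 0.35 (SE 0.13; adjusted p = 0.21 by edgeR) and Samd3 0.45 (SE 0.20; adjusted p = 0.276 by edgeR). No other tested gene of the list had an unadjusted p under 0.05. Gzmk and the cytokine gene Ifng, at 0.137 and 0.347 CPM on average, had too few counts to be tested. The 4 genes listed as NK receptor adaptors, some of them shared with myeloid cells, were all lower in KO in value (median -0.20). Hcst, the partner of Klrk1, was at -0.48 (SE 0.16; unadjusted p = 0.0106, adjusted p = 0.193 by edgeR) and Tyrobp at -0.07. With exon length as an offset 2 of the 4 were positive, and without KO replicate 1 Hcst stood at -0.31.

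Of 13 genes for ligands and survival cytokines, 8 differences were negative (median -0.09). An unadjusted p under 0.05 was reached by 4, with 3 lower in KO (17.0% of all genes). Without KO replicate 1 there was 1 (12.9% of all genes). Without WT replicate 5 there were 8, with 6 lower in KO (16.1% of all genes). With exon length as an offset there were 2, with 0 lower in KO (12.9% of all genes). Cxcl9, a chemokine that attracts activated T and NK cells, was at 2.83, 0.89, 2.32, 1.08 and 0.83 CPM in KO and at 0.57 to 0.95 CPM in WT mice (log2 fold change 1.04, SE 0.35; adjusted p = 0.193 by edgeR). KO replicates 1 and 3 stood above the rest, and without KO replicate 1 the log2 fold change was 0.54 (SE 0.36; unadjusted p = 0.154 by edgeR). KO replicate 1 was at the same time the mouse lowest in 4 of 6 T cell members. Il15, the survival cytokine of NK cells, had -0.23 (SE 0.10; adjusted p = 0.254 by edgeR), and Clec2d, a ligand of an inhibitory receptor of the Klrb1 family, -0.14 (SE 0.05; adjusted p = 0.21 by edgeR). The most abundant, H2-D1, H2-K1 and B2m, which form the MHC class I molecules read by CD8 and by NK inhibitory receptors, stood at 1145, 953 and 860 CPM.

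Between the sexes 1 gene was called among the 22, 20, 29, 4 and 13 tested genes of these lists. Of all tested genes 0.583% were called, and 0.133% were called and lower in males. Cd6, a T cell adhesion receptor, was at 3.46, 4.19 and 4.74 CPM in the males and from 5.16 to 6.78 CPM in the females, without overlap (log2 fold change -0.65, SE 0.12; adjusted p = 0.024 by edgeR). In its list of T cell receptor genes, 19 of 22 differences were negative, 10 of them with an unadjusted p under 0.05, and the median was -0.20. Of all genes 51.7% were negative and 7.79% were lower in males at this p. Without KO replicate 1 the list had 19 negative and 4 at this p, beside 10.6% of all genes in either direction. In the same list Skap1, an adaptor, had -0.49 (SE 0.11; adjusted p = 0.0733 by edgeR) and Trbc2, a receptor beta constant region, -0.43 (SE 0.10; adjusted p = 0.0847 by edgeR). Of the identity and state genes 15 of 20 were negative, 5 at an unadjusted p under 0.05, with Itgae, the integrin of epithelium-bound T cells and some dendritic cells, at -0.47 (adjusted p = 0.0695 by edgeR). The NK list had 13 negative of 29 and a median of 0.05, and 1 gene, Klra7, had an unadjusted p under 0.05. This direction turned without WT replicate 4, where 21 of 30 were negative, the median was -0.08 and 7 genes were lower in males at an unadjusted p under 0.05, which 17.2% of all genes passed in either direction. Without KO replicate 5 the lists again had 1 call (0.514% of all genes). Leaving out KO replicate 1, KO replicate 2 or WT replicate 2 gave 0 calls over the 5 lists, and leaving out KO replicate 4 or WT replicate 4 gave 2. Without KO replicate 1, 0 of all 18132 tested genes were called, so the lists could hold no call there. Of all tested genes 46 of 18107 were called without KO replicate 2, and 1.07% without WT replicate 4.

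From mouse to mouse, correlations were higher within a cell type than between types, with all mice included. Over the 10 mice the median Pearson's r of log2 CPM was 0.67 among the 15 pairs of T cell members, 0.87 among the 6 pairs of NK and cytotoxic members and 0.37 among the 24 pairs of 1 T and 1 NK member. This separation rested on WT replicate 4, since without it the medians were 0.70, 0.63 and 0.67. The closest T cell pair was Cd3d and Cd3g (r = 0.90), the neighbours on chromosome 9, and Cd4 was the T cell member least like the rest, with r from 0.10 with Cd3g to 0.60 with Cd8a. These r values share libraries, depth and mice and are a description.

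For 10 gene pairs correlations were also tested by permutation, adjusted over the pairs. Of these, 5 passed at an adjusted p under 0.05. Cd3e and Cd8a had r = 0.894 (permutation p = 1.1e-04, adjusted 0.0011; Spearman's rho = 0.891, adjusted 0.0058), and r = 0.742 without the mice farthest from the median of Cd3e, KO replicate 2 and WT replicate 5. Cd8a and Cd8b1, which form the CD8 dimer, had r = 0.847 (permutation p = 0.00224, adjusted 0.00747; rho = 0.903), and 0.795 without KO replicates 1 and 2. Nkg7 and Gzma had r = 0.872 (permutation p = 0.00169, adjusted 0.00747; rho = 0.685, adjusted 0.0775), which fell to 0.511 without WT replicate 4 and KO replicate 1. Klrb1c and Ncr1 had r = 0.866 (permutation p = 0.00926, adjusted 0.0231; rho = 0.600, adjusted 0.0923) but 0.274 without the same mice, so the relation rests on them. Cd3e and the B cell gene Cd79a had r = 0.72 (permutation p = 0.0188, adjusted 0.0376; rho = 0.612, adjusted 0.0923) but -0.05 without KO replicate 2 and WT replicate 5, so it rests on those mice.

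Cd3e with Cd3g (r = 0.626, permutation p = 0.0541, adjusted 0.0708; rho = 0.624, adjusted 0.0923), with Cd3d (r = 0.623, permutation p = 0.0567, adjusted 0.0708; rho = 0.685, adjusted 0.0775) and with the leukocyte gene Ptprc (r = 0.678, permutation p = 0.0314, adjusted 0.0523; rho = 0.345, adjusted 0.329) did not pass. Nor did Cd3e with Ncr1 (r = 0.56, permutation p = 0.0966, adjusted 0.107; rho = 0.673, adjusted 0.0775) or with Cd4 (r = 0.515, permutation p = 0.125, adjusted 0.125; rho = 0.418, adjusted 0.26). Without KO replicate 2 and WT replicate 5 these r were -0.02, 0.32, 0.44, 0.18 and 0.72 in the order given. In value, Cd3e was closer to Cd8a than to Cd3d or Cd3g, and the difference between these correlations was not tested. Leaving out KO replicate 1 or WT replicate 4 left 3 pairs past the threshold. With genotype and sex regressed out, 9 of the 10 pairs had an adjusted p under 0.05 by permutation of the residuals. That permutation did not allow for the fitted terms, which makes its p-values too small. This count therefore cannot be set beside the one without the terms.

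**Figure D4:**
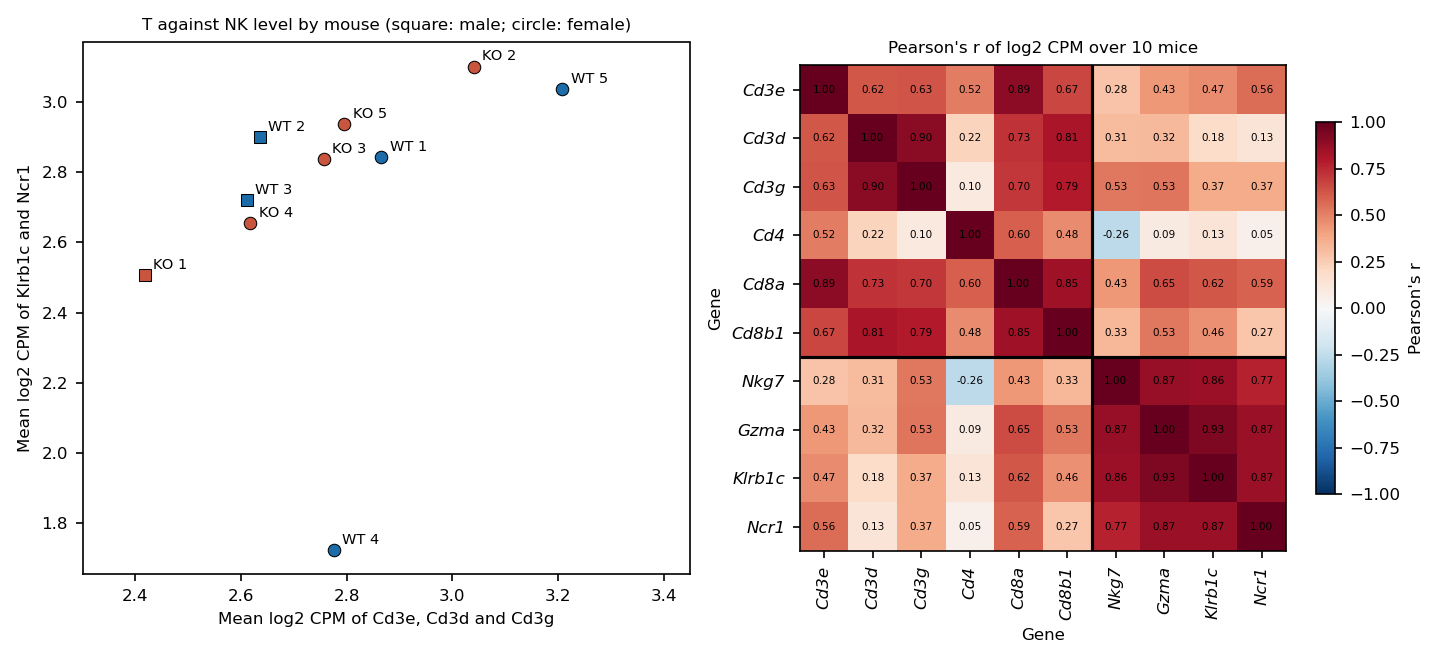
Left, mean log2 CPM of Klrb1c and Ncr1 (vertical axis) against mean log2 CPM of Cd3e, Cd3d and Cd3g (horizontal axis) in each mouse, with WT in blue, KO in red, squares for males and circles for females; right, Pearson's r of log2 CPM over the 10 mice for every pair of the 10 genes (colour and number). WT replicate 4 lies at 1.72 on the NK axis, below the 2.51 to 3.10 of the other mice, and the 2 blocks of higher r are the T cell genes, with Cd4 the least like the rest, and the NK and cytotoxic genes.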

How the data were processed

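RNA abundance was measured in 10 lung samples, 1 per mouse, with genotype and sex as labelled. Per the labels' protocols, libraries were made with a stranded mRNA kit and read as single reads of 50 bases. The authors deposited 1 table of estimated counts per gene, not scaled between samples. Per the submitters' processing notes the tools included STAR 2.6.0, Salmon 0.9.1, FastQC and MultiQC, and the builds mm10 and GRCm38, without a role for each; filters are not given in the sources used here. By more than 0.01, 30.1% of the values above 0 differed from a whole number, so reads of near-identical genes may have been divided among them. All 10 columns matched a sample, with 0 unmatched.

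The counts were rounded before testing. Gene names, positions and exon lengths are those of GENCODE M21 (47281 of 47333 matched; the rest held 0.0067% of counts). Genes were kept by filterByExpr by genotype (minimum count 10, minimum total 15) and tested with edgeR 4.0.16 in R 4.3.3 (TMM scaling, robust quasi-likelihood fit, genotype plus sex, two-sided) with Benjamini-Hochberg adjustment over all 18024 genes. Sexes were compared by the sex term of that fit. SE was computed as the size of the log2 fold change over the root of its F statistic, and log2 CPM uses a prior count of 2. Correlations used 100000 permutations (two-sided). The biological coefficient of variation was 9.69%. The fit was also run on simulated counts, and no result given here draws on that run. DESeq2 1.42.0 (without its own filter on mean counts), limma-voom (limma 3.58.1), other filters, scalings, covariates and thresholds, and leaving out each mouse were tried; an offset for exon length (lowess, span 0.3) was added after seeing the data. Mice were numbered within a genotype by sample order, and the numbers pair none of them.

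The 10 genes and all lists were chosen with earlier results of these data known. Named from each list were the 3 tested genes of highest mean CPM and up to 3 of smallest unadjusted p, not all of which are printed; other genes beyond the 10 were named after their values were seen. Confidence intervals are at 95%.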

Additional observations from a re-analysis of the deposited data

Results flagged for a closer look

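For each of the 10 genes the 5 mice of each genotype were examined for a mouse far from the rest, judged by its gap to the nearest other mouse as a share of the group's whole range (over 0.71 for 5 mice). Of 20 such sets 3 were singled out, where chance gives about 1 in 20. Cd3e in WT replicate 5 was at 9.082 CPM, where the other WT mice had 6.267 to 6.536 CPM, with a gap of 0.904 of the range. Klrb1c in WT replicate 4 was at 3.909 CPM, where the other WT mice had 8.355 to 9.60 CPM, with a gap of 0.781 of the range. Ncr1 in KO replicate 2 was at 7.317 CPM and the remaining KO mice between 4.882 and 5.468 CPM, with a gap of 0.759 of the range. WT replicate 4 was also lowest of the WT mice for Ncr1, Gzma and Nkg7, with gaps that did not reach this limit.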

How the results depend on the processing

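No member and no gene of the T and NK lists was called between KO and WT under any alternative tried. The count of all genes called between KO and WT, 4, was 50 without the filter on low counts, 346 by DESeq2, 2 by limma-voom and 57 at an adjusted p under 0.1, and 2 to 18 when each mouse was left out. Between the sexes 1 member (Cd3d) was called by DESeq2 and at an adjusted p under 0.1, and 0 to 1 with a mouse left out. All genes called between the sexes, 105, became 197 without the filter, 41 without genotype in the model, 436 by DESeq2, 177 with the length offset, 351 at an adjusted p under 0.1 and 0 to 195 with a mouse left out, 0 without KO replicate 1. List genes called between the sexes, 1, became 4 without the filter, 0 without genotype, 6 by DESeq2, 6 at an adjusted p under 0.1 and 0 to 2 with a mouse left out. The 5 correlated pairs became 3 to 7 with a mouse left out. The 9 pairs with genotype and sex regressed out cannot be set beside these, as that permutation did not allow for the fitted terms. Of the KO and WT differences, that of Cd8b1 reversed to 0.0142 without sex in the model, and that of Gzma to 0.0393 without sex, 0.15 in females alone, 2.91e-06 by DESeq2, 0.0487 by limma-voom and 0.0857 with the length offset. With a mouse left out the ranges that crossed 0 were -0.0546 to 0.15 for Cd3e, -0.10 to 0.17 for Cd8a, -0.22 to 0.00167 for Cd8b1, -0.24 to 0.15 for Gzma, -0.12 to 0.32 for Klrb1c and -0.14 to 0.25 for Ncr1. Of the sex differences, Nkg7 reversed to 0.00492 without genotype and Ncr1 to 0.0117 by limma-voom and 0.0275 with the length offset, and with a mouse left out the ranges were -0.25 to 0.14 for Nkg7, -0.37 to 0.0569 for Gzma, -0.30 to 0.19 for Klrb1c and -0.20 to 0.14 for Ncr1. The cause of these changes was not tested. The difference of Cd3d between KO and WT stayed negative, -0.34 to -0.20, in all 19 alternatives. No paired analysis was possible because the labels give no replicate numbers that the genotypes share. At 61 to 856 counts per gene and mouse, counting error adds to the spread between mice, most for Ncr1.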

Other observations

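The genes most like the members from mouse to mouse were sought among the 16271 tested genes that averaged 1 CPM or more, by Pearson's r over the 10 mice after genotype and sex were regressed out. The search is a description. For the mean of Klrb1c and Ncr1 the 5 closest genes were Dok2 (r = 0.967), Prf1 (0.965), Il2rb (0.965), Gm21982 (0.957) and Klra9 (0.946). That mean was 1.72 log2 CPM in WT replicate 4 and 2.51 to 3.10 in the other mice. The search was not repeated without WT replicate 4, so these r may rest on it. Prf1, Il2rb and Klra9, an NK receptor of the Ly49 family, are in the NK list as well, and Dok2 encodes an adaptor of blood cell signalling. For the mean of Cd3e, Cd3d and Cd3g they were Pcp2 (0.968), Slc18a2 (0.958), Sec14l5 (0.945), Cd96 (0.939) and Fubp1 (0.937). Of these Cd96 encodes a receptor of T and NK cells, and Pcp2 and Slc18a2 are known from neurons; the 5 had mean levels of 1.06 to 73.9 CPM.

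Among the markers of other blood cells, the 7 macrophage and monocyte markers summed to 343 to 360 CPM in KO and 324 to 360 CPM in WT mice, and the 6 neutrophil markers to 68.2 to 100.04 CPM in KO and 61.4 to 98.3 CPM in WT mice. None of their tested genes was called between the genotypes by edgeR or had an unadjusted p under 0.05. Of the type 2 innate lymphoid cell markers, 4 of 6 were tested, with 2 positive and 2 negative differences and a median log2 fold change of 0.01. Among them Hs3st1 had -0.30 (SE 0.07; unadjusted p = 7.46e-04, adjusted p = 0.121 by edgeR). DESeq2 called Hs3st1, with an adjusted p of 0.0179, in a fit that called 1.92% of all genes. Of the leukocyte markers Cd52 had -0.19 and Ptprc 0.25, with adjusted p of 0.227 and 0.246 by edgeR. With exon length as an offset, 0 of the 6 leukocyte markers had an unadjusted p under 0.05.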
